A study of Homo sapiens with 8 samples.

Results

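The nuclear genes that encode subunits of the 5 oxidative phosphorylation (OXPHOS) complexes were examined in DOHH2 cells treated with BAY1238097 or with its vehicle. Members were taken by the gene symbol of the array's annotation: the NDUFA, NDUFB, NDUFC, NDUFS and NDUFV genes and NDUFAB1 for complex I, SDHA, SDHC and SDHD for complex II, the UQCR genes and CYC1 for complex III, the COX4 to COX8 genes for complex IV, and the ATP5F, ATP5M and ATP5P genes for complex V. Of 85 matching symbols, 2 pseudogenes and 1 antisense transcript were set aside, which left 82 members among the 20046 genes on the array: 36 of complex I, 3 of complex II, 9 of complex III, 17 of complex IV and 17 of complex V. DOHH2 is an established human B-cell lymphoma line, and BAY1238097 is an inhibitor of the BET bromodomain proteins, readers of histone acetylation that promote transcription. Cells grown in vitro received BAY1238097 in the one group and DMSO in the other. Total RNA taken at 4, 8, 12 and 24 h was hybridised to 8 Illumina arrays, so that each time had 1 array of each group. Sources used here do not give the dose. A single cell line was used, and separate cultures are not mentioned in the labels. The spread behind every p-value is therefore that between 4 times of 1 course, and part of it may be technical.

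The respiratory chain sits in the inner mitochondrial membrane. Complexes I and II pass electrons from NADH and succinate to ubiquinone, complex III passes them on to cytochrome c, and complex IV hands them to oxygen. Complexes I, III and IV pump protons as they do so, and complex V, the ATP synthase, lets the protons flow back through its rotating membrane ring and makes ATP in its F1 head. Most subunits are encoded in the nucleus and a few core ones in mitochondrial DNA. High expression of OXPHOS genes is a known feature of a subset of diffuse large B-cell lymphomas.

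Levels are log2 normalised intensities of the brightest probe of each gene. A probe is called above background where it outshone nearly all olfactory receptor probes, which stand in for genes that these cells do not express. Of the 82 members, 73 were above background on at least 4 of the 8 arrays and were tested, and 72 of these were above it on all 8. NDUFB1 was the exception, above background on 4 of 4 DMSO arrays and on 0 of 4 BAY1238097 arrays. Among the 9 members not tested, 7 were above background on 0 arrays: NDUFS6, an accessory complex I subunit, and COX4I2, COX6A2, COX6B2, COX7A1, COX7B2 and COX8C, isoforms of complex IV subunits known mainly from lung, muscle and testis. NDUFB4 and NDUFC2 were each above it on 1 BAY1238097 array and 2 DMSO arrays. SDHB, UQCRFS1 and the subunits encoded in mitochondrial DNA were not analysed here.

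Some properties of the arrays moved with the groups, and their part in the results below was not tested. Mean probe intensities before normalisation were 262, 331, 366 and 334 on the BAY1238097 arrays at 4, 8, 12 and 24 h, against 264, 383, 419 and 407 on the DMSO arrays. Of 7 B-cell marker genes 4 (CD79A, CD79B, BLK and FCRLA) were above background on all 8 arrays and PAX5 on 0; their summed log2 levels were 60.1 to 61.7 in BAY1238097 cells and 62.5 to 63.6 in DMSO cells. Of 5 T-cell markers 0 were above background on all 8 arrays, with CD3D, CD3E and CD3G above it on 0, and the sums were 32.8 to 33.2 in BAY1238097 cells and 34.0 to 34.3 in DMSO cells. That gap came with TRAT1, a T-cell receptor adaptor, with 0 of 4 BAY1238097 arrays and 4 of 4 DMSO arrays above background. Of 5 myeloid markers 0 passed on all 8 arrays, with sums of 33.0 to 33.2 in BAY1238097 cells and 33.1 to 33.4 in DMSO cells, and of 5 epithelial and stromal markers 0 did, with sums of 32.8 to 33.6 and of 32.9 to 33.3 in the same order. All 8 arrays are of the DOHH2 line, so the sums describe RNA levels and give no share of cell types. Whether a marker changed in all cells or only in some was not tested.

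The first question was which OXPHOS subunit genes differed between BAY1238097 and DMSO over the whole course. Most subunit genes did not pass the test, and those that did moved by small amounts: 11 members fell (15.1% of those tested, against 14.8% of all genes), 3 rose (4.11%, against 15.5%) and 59 did not pass. The ATP synthase ring gene ATP5MC1 fell most, to 0.607 of its DMSO level, and it was the 1 member (1.37% of those tested) whose log2 change exceeded 0.5, against 10.7% of all genes tested. The members that fell were 6 of complex I (NDUFC1, NDUFA9, NDUFB8, NDUFB1, NDUFS5 and NDUFAB1), 1 of complex III (UQCR11) and 4 of complex V (ATP5MC1, ATP5ME, ATP5MC3 and ATP5PB). NDUFB1 passed the filter through the DMSO arrays alone and had to differ, so it supports nothing; among the 72 members measured in both groups 10 fell (13.9%). Those that rose were NDUFB5 and NDUFB11 of complex I and ATP5PD of complex V.

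Each gene was tested with limma, with the time point as a block, and p-values were adjusted by the Benjamini-Hochberg method over 10436 genes with a threshold of 0.05. Of the 73 members tested 19.2% passed, against 30.3% of all genes tested, and the share that fell was near the background. The median log2 change, BAY1238097 minus DMSO, was -0.064 over the members and 0.0099 over all genes. It was below 0 for 47 members (64.4%, against 47.8% of all genes). The median size of the change regardless of sign was 0.141 over the members and 0.158 over all genes. Members were brighter, with a median log2 level of 11.08 against 8.07 for all genes tested. The shares over all genes are thus not matched for brightness. The 3 rises were lost when arrays were scaled by their medians, with or without background correction, and when background was corrected before quantile normalisation; the falls then numbered 24, 12 and 8. Without the 8 h arrays, and likewise without the 12 h arrays, 0 members rose and 1 fell (NDUFC1). There were 4 rises and 22 falls without the 4 h arrays, and 4 rises and 6 falls without the 24 h arrays. Counts over all genes moved with the scaling and with the times left out as well, as the last section gives. With median scaling the median difference of all genes was -0.109, -0.097 and -0.121 at 8, 12 and 24 h. The member counts under these settings are therefore no result about the members alone.

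**Figure D1:**
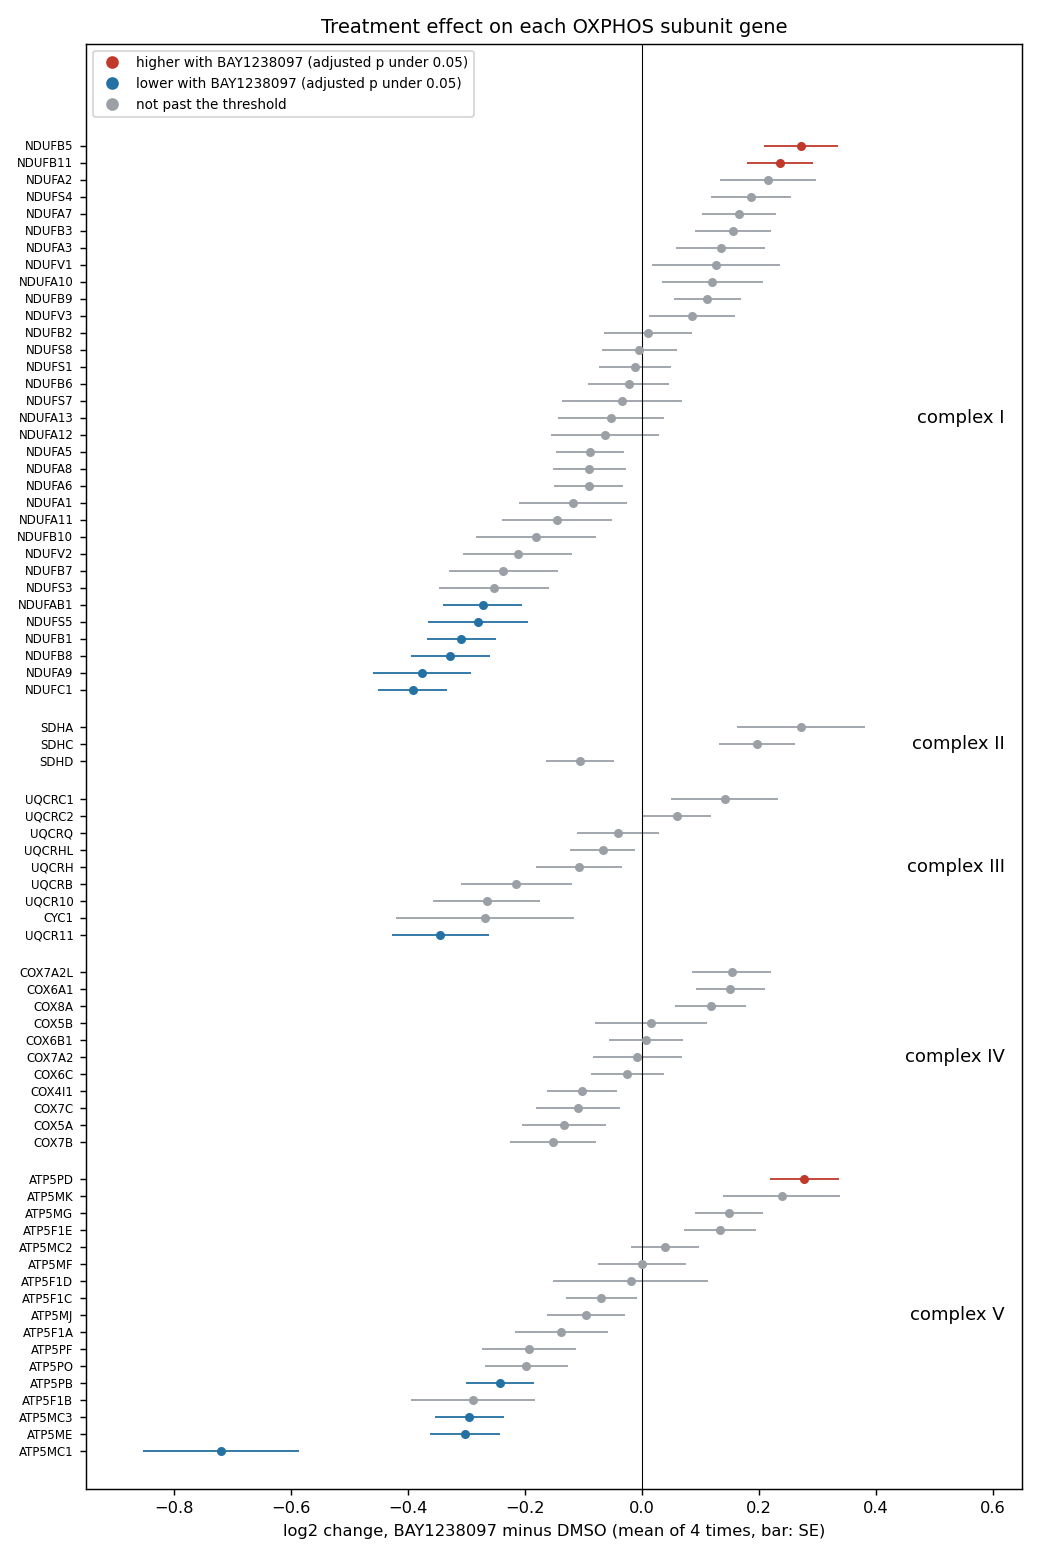
Treatment effect on the 73 OXPHOS subunit genes tested, by complex. The horizontal axis is the log2 change, BAY1238097 minus DMSO, averaged over the 4 time points, points are the estimates, bars are standard errors, and colours mark the 3 genes that rose, the 11 that fell and the 59 that did not pass the test. ATP5MC1, at -0.72, stands apart from the other members, which lie between -0.39 and 0.28.

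The promoters of the members that moved are shown because 4 letter patterns of factors known to act on mitochondrial genes, or named among their regulators, could be looked up in them. The windows ran from 250 bases before to 50 bases after each annotated start in the RefSeq promoter table of GRCh38.p14, which held 67 of the 82 members. Both strands were searched, and letters of different patterns overlapped in 0 of the 67. The NRF1 pattern (GCGC, then A and any base, then GCGC) was in 23.9% of the member promoters, 12.7% of those of all genes tested and 6.28% of all promoters in the table. The ETS pattern CCGGAAG, bound by GABPA, was in 28.4%, 20.7% and 10.7%, and the YY1 pattern AANATGGCG in 20.9%, 7.56% and 3.37% of the same 3 sets. The E-box CACGTG, the letters bound by MYC with its partner MAX, was in 10.4%, 10.3% and 7.43%. At least 1 of the 4 patterns was in 61.2% of the member promoters. These shares describe letters, with no test, and a match is not evidence of binding.

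The E-box was found in 7 of the tested members, of which 4 had fallen (of the 9 fallen members with a promoter, 44.4%), 3 had not passed the test (of 50, 6.0%) and 0 had risen (of 2). NDUFB1 is among the 9 and has no E-box. This split was seen after the calls were known and carries no test. The E-box was in 10.3% of the promoters of all genes tested, and its share among all genes that fell was not counted. One of the 4, ATP5ME, has a dimmer probe that rose (0.24, limma adjusted p = 0.029 over the probes kept), and its call was lost with the mean of its probes. The 30 bases around each are given 5′ to 3′ on the gene's strand, with the E-box in capitals, first for the 4 members that fell: ATP5MC1 (chr17:48892779-48892808, plus strand, from base 5 after the start), ATP5ME (chr4:674421-674450, minus strand, 162 bases before the start), ATP5PB (chr1:111449229-111449258, plus strand, 223 before) and UQCR11 (chr19:1605632-1605661, minus strand, 187 before).
ATP5MC1: gaaggtccaggaCACGTGggtgggggaagc
ATP5ME: gcgcgtgcgcctCACGTGacgtcaccgccg
ATP5PB: ggcagcaaacccCACGTGgtgcacctctga
UQCR11: cggccgccagacCACGTGgccagaaagcac
The 3 members with an E-box that did not pass the test were NDUFA11 (chr19:5903905-5903934, minus strand, 132 before), NDUFA7 (chr19:8321478-8321507, minus strand, 120 before) and NDUFS7 (chr19:1383708-1383737, plus strand, 187 before).
NDUFA11: ggcctggggatgCACGTGctactctcttcc
NDUFA7: gcggagaggagtCACGTGcttcggggagag
NDUFS7: acccgcggccccCACGTGcgcactccgatg

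The 250 bases before the start are printed for 3 of the 5 members whose BAY1238097 and DMSO arrays did not overlap, with the letters of all 4 patterns in capitals: UQCR11 (chr19:1605463-1605712, minus strand) and NDUFA9 (chr12:4648864-4649113, plus strand), which fell, and ATP5PD (chr17:75046970-75047219, minus strand), which rose. The UQCR11 stretch held the E-box, the ETS letters at 117 and at 97 bases before the start, and the NRF1 letters at 29 and at 10 bases before it. NDUFA9 held the NRF1 letters at 80 bases before the start and ATP5PD the ETS letters at 101. The full window of NDUFA9 also held the YY1 letters, which do not lie wholly within the printed stretch. The window of NDUFB1, not printed, held 0 of the 4 patterns, and ATP5MC3 was not matched in the table.
UQCR11: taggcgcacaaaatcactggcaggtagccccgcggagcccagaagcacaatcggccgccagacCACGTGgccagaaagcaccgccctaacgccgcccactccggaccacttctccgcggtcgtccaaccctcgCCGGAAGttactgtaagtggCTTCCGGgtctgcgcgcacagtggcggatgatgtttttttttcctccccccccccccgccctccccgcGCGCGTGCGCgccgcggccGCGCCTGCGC
NDUFA9: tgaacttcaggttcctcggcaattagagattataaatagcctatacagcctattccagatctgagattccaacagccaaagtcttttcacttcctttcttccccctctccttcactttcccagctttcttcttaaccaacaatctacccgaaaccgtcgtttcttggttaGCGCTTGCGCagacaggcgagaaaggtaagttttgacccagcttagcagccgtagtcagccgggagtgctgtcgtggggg
ATP5PD: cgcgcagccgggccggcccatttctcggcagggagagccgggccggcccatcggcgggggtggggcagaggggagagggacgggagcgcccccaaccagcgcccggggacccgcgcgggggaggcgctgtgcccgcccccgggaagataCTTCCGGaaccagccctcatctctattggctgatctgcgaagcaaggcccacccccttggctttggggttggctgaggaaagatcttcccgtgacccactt

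In complex I, the NADH dehydrogenase, 2 of 33 tested subunit genes rose, 6 fell (5 without NDUFB1) and 25 did not pass the test, with a median log2 change of -0.054. The 8 that moved were all accessory subunits, which surround the catalytic core. Of 27 accessory genes 2 rose and 6 fell (median -0.064). Of the 6 core genes tested (NDUFV1, NDUFV2, NDUFS1, NDUFS3, NDUFS7 and NDUFS8) 0 rose or fell (median -0.023). The flavin and the iron-sulphur clusters sit among these core subunits. NDUFB1, kept through the DMSO arrays alone, is among the 6 accessory genes that fell. Of all genes tested 15.5% rose and 14.8% fell. Whether core and accessory genes differ was not tested, and the split depended on the scaling. With median scaling the core genes NDUFS3 (-0.46, limma adjusted p = 0.0347) and NDUFV2 (-0.41, limma adjusted p = 0.0286) also fell. NDUFC1, a small membrane subunit, had levels of 8.56, 8.01, 8.17 and 8.04 in BAY1238097 cells at 4, 8, 12 and 24 h, against 8.91, 8.45, 8.51 and 8.48 in DMSO cells. It was lower with BAY1238097 at every time by a similar amount, although the ranges of the groups overlapped because both 4 h arrays were high. Its log2 change was -0.39 ± 0.06 (SE, n = 4 arrays a group, limma adjusted p = 0.00526). NDUFC1 was also the call that kept its side of the threshold most often, in 13 of 14 alternative settings, and was lost without the block (adjusted p = 0.114).

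NDUFA9, which sits at the junction of the membrane and matrix arms near the ubiquinone site, had levels of 9.93, 9.80, 9.94 and 9.70 in BAY1238097 cells, against 10.04, 10.29, 10.35 and 10.20 in DMSO cells. All 4 BAY1238097 arrays lay below all 4 DMSO arrays, and the gap was narrowest at 4 h. The log2 change was -0.38 ± 0.08 (SE, limma adjusted p = 0.0172). NDUFB8, a membrane-arm subunit often used as a protein marker of assembled complex I, had 12.23, 11.71, 11.73 and 11.68 in BAY1238097 cells, against 12.44, 12.15, 11.99 and 12.09 in DMSO cells. It was lower at all 4 times, with a log2 change of -0.33 ± 0.07 (limma adjusted p = 0.0137), and the 4 h array with BAY1238097 stood well above the other 3 of its group. NDUFB1, another membrane-arm subunit, had 6.76, 6.58, 6.68 and 6.65 in BAY1238097 cells, none of them above background, against 7.0, 6.96, 7.01 and 6.94 in DMSO cells. Since only the DMSO level was measured, it is given as at least 1.15-fold lower (limma adjusted p = 0.0108), and neither its p nor the gap between its groups counts as support, because the filter kept it through the DMSO arrays alone. That bound sets the mean over the DMSO arrays against, on each BAY1238097 array, the higher of the probe's own level and the dimmest probe above background.

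NDUFS5, an accessory subunit on the intermembrane-space side, had 11.91, 11.78, 12.17 and 11.87 in BAY1238097 cells, against 11.96, 12.23, 12.38 and 12.28 in DMSO cells. It was lower at each time but the groups overlapped, and its change of -0.28 ± 0.09 was close to the threshold (limma adjusted p = 0.048). NDUFAB1, the mitochondrial acyl carrier protein that is also part of complex I, changed by -0.27 ± 0.07 (limma adjusted p = 0.025). The members that rose did so about as far: NDUFB5 had 11.61, 11.94, 11.88 and 11.91 in BAY1238097 cells, against 11.34, 11.67, 11.50 and 11.74 in DMSO cells, a log2 change of 0.27 ± 0.06 (limma adjusted p = 0.0202). NDUFB11 changed by 0.24 ± 0.06 (limma adjusted p = 0.0218), and like NDUFB5, also a membrane-arm subunit, it was higher at all 4 times while its groups overlapped. Without the 24 h arrays NDUFA9, NDUFAB1, NDUFS5 and NDUFB11 did not pass the test, and without the 8 h or the 12 h arrays none of the complex I genes but NDUFC1 did.

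Complex II, succinate dehydrogenase, also works in the citric acid cycle, and 0 of its 3 measured genes passed the test, against 30.3% of all genes. SDHA, the flavoprotein that oxidises succinate, had 9.58, 9.88, 10.01 and 9.61 in BAY1238097 cells, against 9.39, 9.44, 9.46 and 9.70 in DMSO cells. It was higher with BAY1238097 at 4, 8 and 12 h and lower at 24 h, and the log2 change of 0.27 ± 0.11 had an adjusted p of 0.109 with limma. SDHC, a membrane anchor, had 9.25, 8.85, 8.94 and 8.86 in BAY1238097 cells, against 9.05, 8.79, 8.70 and 8.56 in DMSO cells, a change of 0.20 ± 0.07 (limma adjusted p = 0.0644). The dimmer probe of SDHC moved the other way, by -0.24 (limma adjusted p = 0.041 over the probes kept), so no direction can be given for this gene. SDHD, the other anchor, had 10.23, 10.11, 9.77 and 9.72 in BAY1238097 cells, against 10.39, 10.20, 9.82 and 9.83 in DMSO cells. Its levels were lower at 12 and 24 h than earlier in both groups, and the change between them was -0.11 ± 0.06 (limma adjusted p = 0.213). This depended on the scaling: with median scaling SDHD fell by -0.32 (limma adjusted p = 0.0131).

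In complex III, the cytochrome bc1 complex, 1 of 9 genes fell (against 14.8% of all genes tested) and 0 rose (against 15.5%). The median log2 change was -0.108. A count out of 9 genes cannot be set apart from these shares. UQCR11, a small subunit of the complex, had 6.89, 7.35, 7.41 and 7.22 in BAY1238097 cells, against 7.49, 7.55, 7.64 and 7.56 in DMSO cells. The groups did not overlap, and the gap was widest at 4 h, where the BAY1238097 array was the lowest of all. The change was -0.34 ± 0.08 (limma adjusted p = 0.0222), and it did not pass without the 8, the 12 or the 24 h arrays. UQCR10, a small subunit near cytochrome c1, had 9.02, 8.61, 8.79 and 8.38 in BAY1238097 cells, against 8.96, 8.96, 9.19 and 8.74 in DMSO cells. It was lower from 8 h on, with a change of -0.27 ± 0.09 that did not pass (limma adjusted p = 0.0705), and its other probes changed by 0.00071 and 0.10. UQCRB, which binds ubiquinone, had 9.62, 9.62, 9.95 and 9.73 in BAY1238097 cells, against 9.56, 9.74, 10.30 and 10.18 in DMSO cells, a change of -0.22 ± 0.09 (limma adjusted p = 0.134).

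CYC1, the haem-bearing cytochrome c1 that delivers electrons to cytochrome c, was the member whose treatment effect changed with time. Its levels were 10.71, 10.74, 11.12 and 10.78 in BAY1238097 cells, against 10.39, 11.03, 11.60 and 11.42 in DMSO cells. CYC1 was thus higher with BAY1238097 at 4 h, by 0.33, and lower at 8, 12 and 24 h (differences of -0.29, -0.47 and -0.64). Averaged over the course the change was -0.27 ± 0.15 (limma adjusted p = 0.23), and the effect moved by -0.37 ± 0.07 for each doubling of time (limma adjusted p = 0.0452). Without the 4 h arrays that coefficient was -0.21 (adjusted p = 0.174), without the 12 h arrays it was -0.36 (adjusted p = 0.0715), and with background correction before quantile normalisation it was -0.39 (adjusted p = 0.109); it did not pass in 7 of the 14 alternative settings. UQCRC1, a core protein of the matrix side, had 9.37, 9.54, 9.99 and 9.81 in BAY1238097 cells, against 9.05, 9.31, 9.81 and 9.98 in DMSO cells. Its lowest level was at 4 h in both groups, and the change between them was 0.14 ± 0.09 (limma adjusted p = 0.293). UQCRH and UQCRHL are near-identical copies whose probes may share signal, and neither passed.

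In complex IV, cytochrome c oxidase, 0 of 11 tested genes passed the test, against 30.3% of all genes. The changes lay between -0.15 and 0.15 with a median of -0.0083. COX7A2L, which helps complex III and complex IV to associate, had 11.30, 11.35, 11.41 and 11.56 in BAY1238097 cells, against 11.12, 11.31, 11.33 and 11.26 in DMSO cells, a change of 0.15 ± 0.07 (limma adjusted p = 0.135). COX6A1 had 10.81, 10.82, 11.13 and 11.07 in BAY1238097 cells, against 10.72, 10.69, 10.96 and 10.85 in DMSO cells. COX8A had 12.14, 12.30, 12.43 and 12.40 in BAY1238097 cells, against 11.97, 12.11, 12.40 and 12.31 in DMSO cells. COX7A2L, COX6A1 and COX8A were higher at every time and none passed the test, with changes of 0.15 ± 0.06 for COX6A1 (limma adjusted p = 0.0988) and 0.12 ± 0.06 for COX8A (limma adjusted p = 0.191). COX5A, which contacts the copper-bearing core, had 12.59, 12.11, 12.07 and 12.14 in BAY1238097 cells, against 12.83, 12.38, 12.09 and 12.16 in DMSO cells (change -0.13 ± 0.07, limma adjusted p = 0.21). COX7B had 11.45, 11.13, 10.91 and 10.79 in BAY1238097 cells, against 11.42, 11.25, 11.14 and 11.08 in DMSO cells, a change of -0.15 ± 0.07 (limma adjusted p = 0.164). Both COX5A and COX7B were highest at 4 h in each group. COXFA4, formerly NDUFA4 and now known as a complex IV subunit, does not carry a member symbol and changed by -0.27 ± 0.08 (limma adjusted p = 0.0379). The absence of calls in complex IV thus holds only for the symbols taken here and for the main processing. With median scaling COX5A (-0.25, limma adjusted p = 0.0392) and COX7B (-0.36, limma adjusted p = 0.0347) fell.

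In complex V, the ATP synthase, 1 of 17 genes rose, 4 fell and 12 did not pass the test, with a median log2 change of -0.096. Of all genes tested 15.5% rose and 14.8% fell. The 5 genes of the catalytic F1 head (ATP5F1A to ATP5F1E) had 0 calls and a median of -0.069. The 5 calls were all among the 12 other genes, which encode the membrane ring, the stalk and the membrane-anchored small subunits. Whether the F1 head and the other genes differ was not tested. With median scaling the F1 gene ATP5F1C also fell (-0.27, limma adjusted p = 0.0295). ATP5MC1 encodes the ring subunit c, which turns as protons pass. Its levels were 11.18, 10.40, 10.39 and 9.96 in BAY1238097 cells, against 11.40, 11.18, 11.22 and 11.01 in DMSO cells. The 4 h array with BAY1238097 still lay within the DMSO range, the later arrays lay below it, and the difference widened at each time (-0.21, -0.78, -0.83 and -1.06). The change was -0.72 ± 0.13 (SE, n = 4 arrays a group, limma adjusted p = 0.00992), which is 1.65-fold lower, and its dimmer probe changed by -0.33 (limma adjusted p = 0.029 over the probes kept).

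The ATP5MC1, ATP5MC2 and ATP5MC3 genes encode the same mature ring subunit, and the first and the last of them fell. ATP5MC3 had 7.52, 7.67, 7.54 and 7.56 in BAY1238097 cells, against 7.89, 7.95, 7.84 and 7.78 in DMSO cells. Its groups did not overlap and its gap was of similar size throughout, a change of -0.30 ± 0.06 (limma adjusted p = 0.0125). ATP5MC2 had 11.84, 12.03, 12.08 and 12.12 in BAY1238097 cells, against 11.86, 11.94, 12.03 and 12.07 in DMSO cells, a change of 0.04 ± 0.06 (limma adjusted p = 0.648). The differences between the 3 genes were not tested.

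Among the other membrane and stalk genes, ATP5ME, subunit e of the membrane part, had 12.19, 11.87, 11.94 and 11.78 in BAY1238097 cells, against 12.49, 12.22, 12.16 and 12.12 in DMSO cells. It was lower by a similar amount at each time (-0.30 ± 0.06, limma adjusted p = 0.0117). A dimmer ATP5ME probe rose by 0.24 (limma adjusted p = 0.029 over the probes kept), and with the mean of its probes the call was lost, so its direction rests on the brightest probe. ATP5PB, the stator stalk subunit b, changed by -0.24 ± 0.06 (limma adjusted p = 0.0217), and its other probe by -0.30. ATP5PD, the stalk subunit d, had 12.11, 12.18, 12.21 and 12.15 in BAY1238097 cells, against 11.83, 11.83, 12.01 and 11.87 in DMSO cells. All BAY1238097 arrays lay above all DMSO arrays, with a change of 0.28 ± 0.06 (limma adjusted p = 0.0152) and of 0.21 at its other probe. ATP5MG, subunit g, did not pass with its brightest probe (0.15), while its dimmer probe changed by -0.34 (limma adjusted p = 0.025 over the probes kept). ATP5F1B, the catalytic beta subunit of the F1 head, had 13.40, 13.29, 13.34 and 13.19 in BAY1238097 cells, against 13.30, 13.63, 13.72 and 13.72 in DMSO cells. It was lower from 8 h on, and its change of -0.29 ± 0.11 did not pass (limma adjusted p = 0.0849). Without the 8 h or the 12 h arrays 0 complex V genes passed, ATP5PB was also lost without the 24 h arrays, and ATP5PD under the other scalings; ATP5MC1 had an adjusted p of up to 0.0674 over the alternatives and ATP5MC3 of up to 0.0734.

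**Figure D2:**
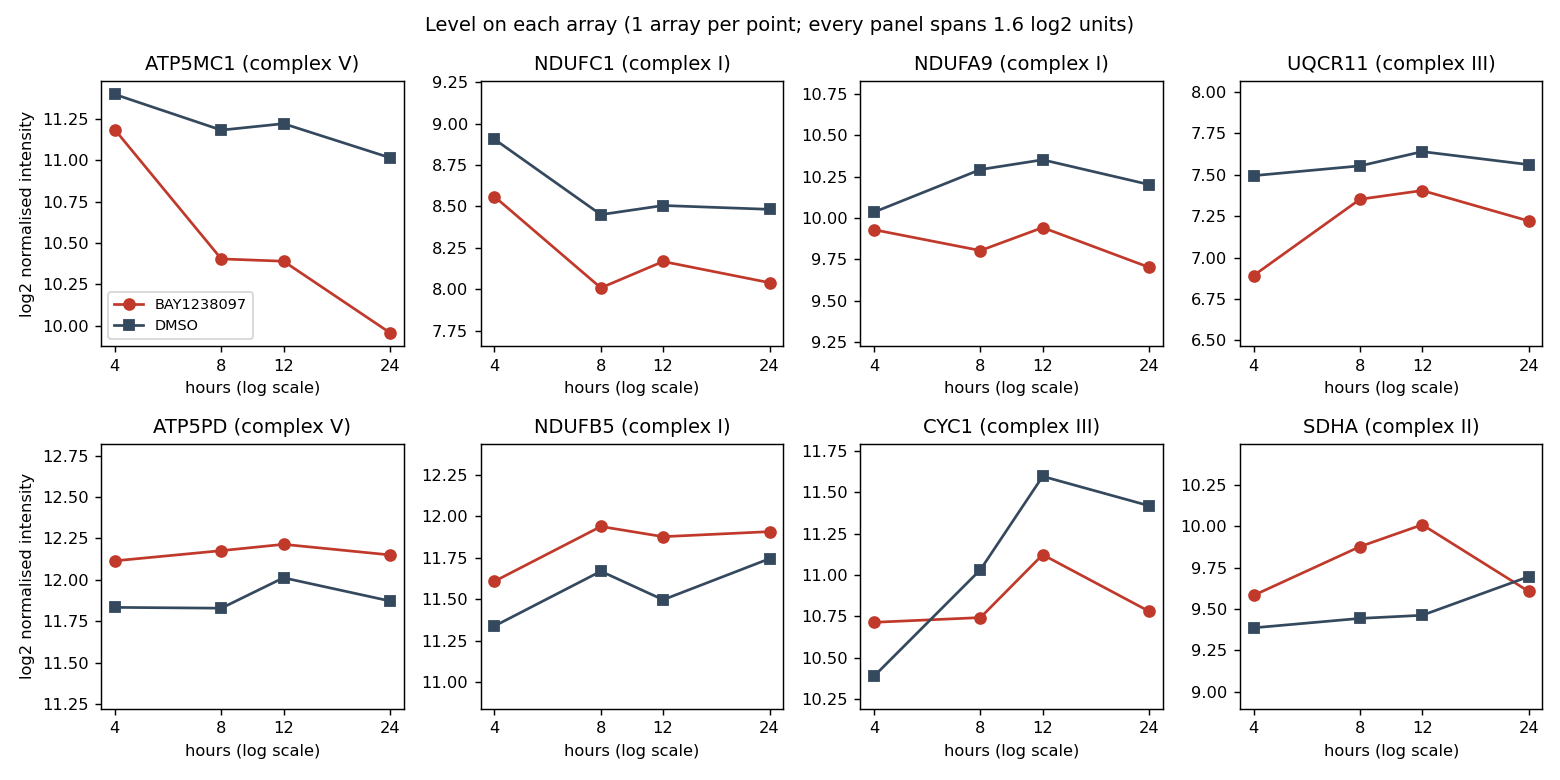
Levels of 8 OXPHOS subunit genes on each array, as log2 normalised intensity (vertical axis, 1.6 log2 units in every panel) against hours on a log scale, with circles for BAY1238097 and squares for DMSO, 1 array per point. ATP5MC1 separates from 8 h on, NDUFC1, NDUFA9 and UQCR11 are lower and ATP5PD and NDUFB5 higher with BAY1238097 at all 4 times, and the lines of CYC1 and SDHA cross.

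Agreement over the 4 times was looked at next, as a description. The difference between BAY1238097 and DMSO had the same sign at all 4 times in 31 members. It was positive throughout in 13 (17.8%, against 24.4% of all genes tested) and negative throughout in 18 (24.7%, against 22.4%). The 4 BAY1238097 arrays lay entirely below the 4 DMSO arrays for 4 members (5.48%, against 9.57%), namely NDUFA9, UQCR11, ATP5MC3 and NDUFB1, of which the last was not above background with BAY1238097 (3 of 72, or 4.17%, without it), and entirely above them for ATP5PD alone (1.37%, against 10.5%). Both of these shares lay below those of all genes.

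The question of when the subunit genes moved was addressed by the difference at each time, which rests on 1 array of each treatment and has no test. The median of the members passed below 0 over the course. At the successive times their median difference was 0.068, -0.027, -0.082 and -0.132, while that of all genes tested stayed between 0.0042 and 0.013. At 4 h 24 members were below 0 (32.9%, against 47.6% of all genes), at 8 h 38 (52.1%, against 48.1%), at 12 h 46 (63%, against 49.1%) and at 24 h 54 (74%, against 49.4%). In complex III the number below 0 was 2, 6, 7 and 9 of 9 at the successive times, and in complex I it was 11, 19, 19 and 23 of 33. Complex V had 8, 8, 12 and 13 of 17 below 0, and complex IV had 2, 4, 7 and 7 of 11. Members share arrays and are not independent, so these counts are not evidence from separate replicates. The kept probes were as a whole dimmer with BAY1238097 before normalisation, with mean log2 differences of -0.011, -0.265, -0.243 and -0.316 at the successive times, and the part of this in the drift of the members was not tested. With median scaling, which moved the median of all genes to -0.0012, -0.109, -0.097 and -0.121, the members' median minus that of all genes was 0.040, -0.097, -0.075 and -0.256, against 0.055, -0.037, -0.086 and -0.136 with quantile normalisation.

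**Figure D3:**
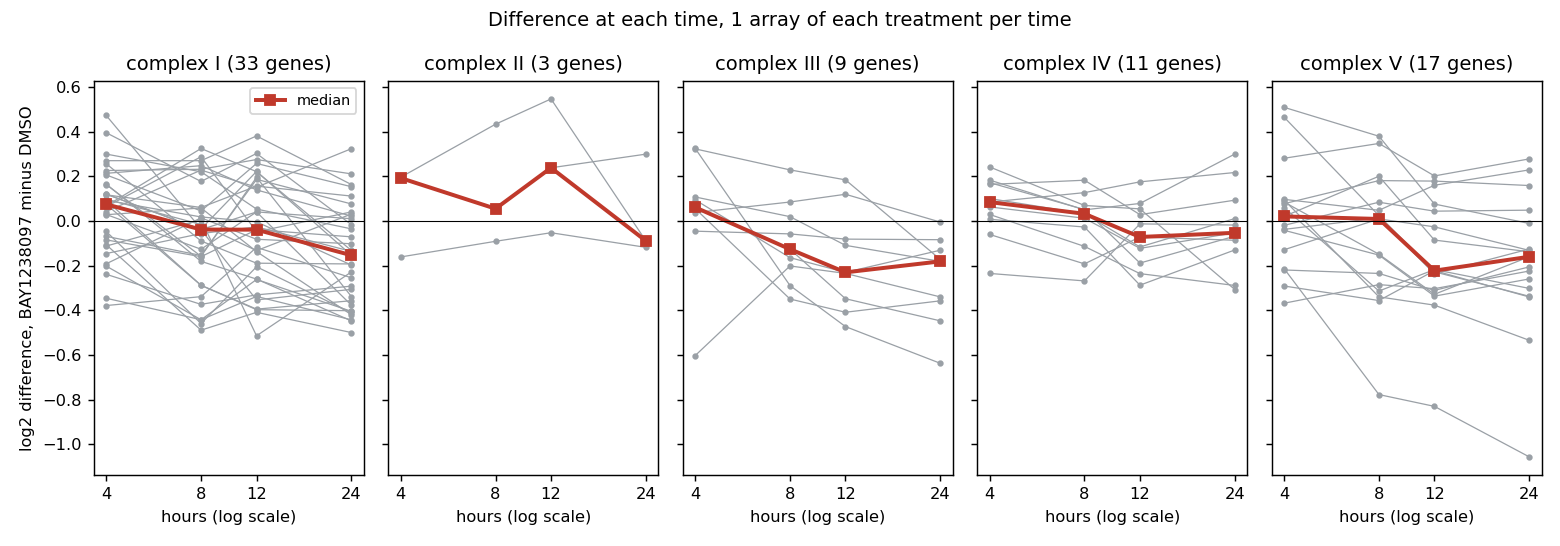
Difference in log2 level, BAY1238097 minus DMSO, at 4, 8, 12 and 24 h (log scale) for each tested subunit gene (grey) and the median of its complex (red squares), with 1 array of each treatment per time. In complex III 2 of 9 genes lie below 0 at 4 h and all 9 at 24 h, and the lowest line of complex V is ATP5MC1, at -1.06 at 24 h.

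The change of the treatment effect with time was tested with a treatment by time term, on log2 hours. It was below 0 for 54 members (74%), against 51.4% of all genes tested. Between 49 and 55 members were below 0 when any 1 time was left out. All genes tested are mostly dimmer than the members, and no set of like brightness was compared. Only CYC1 passed the threshold, against 3.52% of all genes, of which 1.82% went up and 1.7% down. ATP5F1D, the delta subunit of the F1 head, and ATP5MC1 came next, with coefficients of -0.32 ± 0.07 (limma adjusted p = 0.0538) and -0.31 ± 0.07 (limma adjusted p = 0.0602) per doubling of time. Before adjustment 16 members had a p under 0.05, all with a coefficient below 0 (21.9%, against 10.5% of all genes in that direction and 21.6% in either). Of these 8 belonged to complex I, 3 to complex III, 1 to complex IV and 4 to complex V.

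Trends within each group show how the subunit genes moved in vehicle culture alone. Over the members the median slope per doubling of time was -0.034 in BAY1238097 cells and 0.066 in DMSO cells, against 0.0038 and 0.0097 over all genes. In BAY1238097 cells 1 member rose along the course (background 4.93%): ATP5F1E, the epsilon subunit of the F1 head, by 0.23 per doubling (limma adjusted p = 0.0465). In the same cells 3 members fell (background 4.21%). They were ATP5MC1 by -0.45 (limma adjusted p = 0.0128), NDUFS7, a core complex I subunit with an iron-sulphur cluster, by -0.44 (limma adjusted p = 0.0221), and COX7B by -0.26 (limma adjusted p = 0.0236). In DMSO cells 3 members rose (background 3.56%) and 0 fell (background 4.18%). Those that rose were ATP5F1D by 0.55 (limma adjusted p = 0.0456), UQCRC1 by 0.38 (limma adjusted p = 0.0376) and NDUFS8, another core complex I subunit, by 0.28 (limma adjusted p = 0.0407). ATP5F1D had 9.92, 10.06, 10.66 and 10.42 in BAY1238097 cells, against 9.45, 10.04, 10.89 and 10.76 in DMSO cells, so its lowest level was at 4 h in both groups; its slope in BAY1238097 cells did not pass (0.24, limma adjusted p = 0.276). The slope was below 0 in BAY1238097 cells and above 0 in DMSO cells for 13 members (17.8%, against 16.1% of all genes), which is near the background. These counts depended on single times: without the 4 h or the 8 h arrays 0 members had a trend in either group, without the 12 h arrays 0 rose and 2 fell in BAY1238097 cells, and without the 24 h arrays 3 rose and 5 fell in BAY1238097 cells and 13 rose and 6 fell in DMSO cells.

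Genes that build, feed and regulate the complexes were examined as other parts of the pathway. Among the assembly factors, which help to put the complexes together, 6 of 49 tested rose (12.2%, against 15.5% of all genes) and 14 fell (28.6%, against 14.8%), with a median log2 change of -0.034. COA7, an assembly factor of complex IV, had 7.20, 7.48, 7.51 and 7.13 in BAY1238097 cells, against 8.28, 8.45, 8.19 and 8.09 in DMSO cells, a change of -0.92 ± 0.08 (limma adjusted p = 0.00126). The groups did not overlap. SURF1, which acts early in complex IV assembly, had 8.54, 8.71, 9.03 and 9.31 in BAY1238097 cells, against 7.96, 8.09, 8.48 and 8.72 in DMSO cells, a change of 0.59 ± 0.06 (limma adjusted p = 0.00157). It climbed in both groups, about the same distance apart at each time. The complex I assembly factors NDUFAF4 and NDUFAF6 changed by -0.55 ± 0.09 (limma adjusted p = 0.00666) and -0.54 ± 0.06 (limma adjusted p = 0.00274), with no overlap between the groups for either gene.

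Among 15 tested carriers of electrons, adenylates and ions 2 rose (13.3%, against 15.5% of all genes) and 3 fell (20%, against 14.8%), shares near the background, with a median of -0.073. ETFDH, which feeds electrons from fatty acid oxidation to ubiquinone, rose by 0.50 ± 0.10 (limma adjusted p = 0.0106), and HIGD2A, a factor of respiratory supercomplexes, rose by 0.47 ± 0.08 (limma adjusted p = 0.00708). GPD2, the mitochondrial glycerol-3-phosphate dehydrogenase, changed by -0.38 ± 0.07 (limma adjusted p = 0.00834) and VDAC1, the main pore of the outer membrane, by -0.32 ± 0.09 (limma adjusted p = 0.0313). The other gene that fell was DHODH, named after its value was seen, with 2 of 4 BAY1238097 arrays and 4 of 4 DMSO arrays above background (-0.31 ± 0.07, limma adjusted p = 0.017). CYCS, cytochrome c itself, had 9.06, 8.63, 8.81 and 8.71 in BAY1238097 cells, against 9.20, 9.14, 8.94 and 8.47 in DMSO cells, and did not pass (-0.14 ± 0.12, limma adjusted p = 0.426). VDAC1 was lost without the 8, 12 or 24 h arrays and ETFDH without the 8 h arrays.

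Among 16 tested regulators of mitochondrial biogenesis 1 rose (6.25%, against 15.5% of all genes) and 8 fell (50%, against 14.8%), with a median log2 change of -0.257. MYC, a transcription factor that drives growth and biogenesis genes, had 9.64, 10.38, 10.82 and 11.15 in BAY1238097 cells, against 11.61, 11.54, 11.63 and 11.73 in DMSO cells. It was lowest at 4 h and came closer to the DMSO level at each later time. The change was -1.13 ± 0.21 (limma adjusted p = 0.0104), and it was lost without the 8 h arrays. PPRC1, a coactivator of the PGC-1 family, changed by -0.84 ± 0.07 (limma adjusted p = 0.00126), TWNK, the helicase of mitochondrial DNA, by -0.69 ± 0.07 (limma adjusted p = 0.00204), and GABPB1, the partner of the ETS factor GABPA, by -0.62 ± 0.11 (limma adjusted p = 0.00907). The 4 BAY1238097 arrays lay below the 4 DMSO arrays for each of these 4 genes. PPARGC1B, which encodes the coactivator PGC-1 beta, changed by -0.42 ± 0.07 (limma adjusted p = 0.00705) with 3 of 4 BAY1238097 arrays and 4 of 4 DMSO arrays above background. POLG, the polymerase of mitochondrial DNA, was the gene that rose, by 0.55 ± 0.09 (limma adjusted p = 0.00681), and was named after its value was seen. PPARGC1A was above background on 0 arrays, and NRF1, above it on 3 of 8, was not tested.

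**Figure D4:**
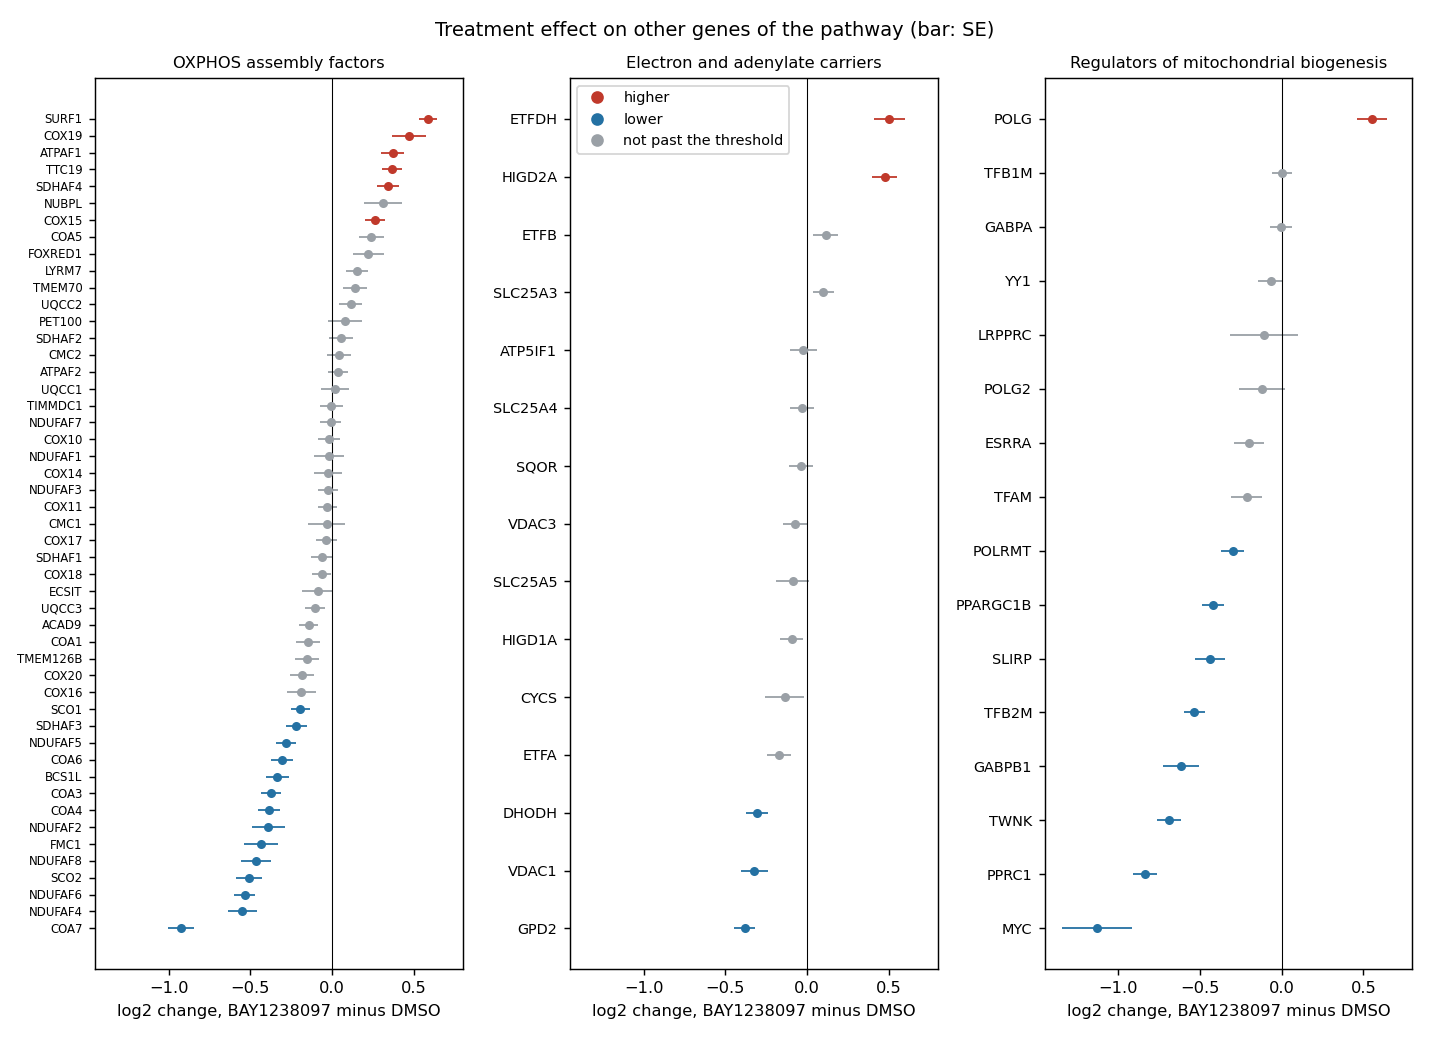
Treatment effect on 49 assembly factors, 15 carriers and 16 regulators of mitochondrial biogenesis. The horizontal axis is the log2 change, BAY1238097 minus DMSO, points are the estimates, bars are standard errors, and colours mark genes that rose, fell or did not pass the test. MYC at -1.13 and COA7 at -0.92 lie farthest to the left, and SURF1 at 0.59 farthest to the right.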

How the data were processed

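Deposited intensities, linear and neither normalised nor background-subtracted by their values, cover 47231 probes on 8 arrays. The 10 further columns, which have no sample name, were not used. A second deposited table holds log2 values. RNA was labelled as biotinylated cRNA, per the labels' protocols. Quantile normalisation of the log2 intensities, without background correction, gave the deposited log2 values within 0.00126. The annotation names 1 gene for 30113 probes, several for 8 and none for 17110, and only the first kind was named.

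No detection p-values were used. The 437 olfactory receptor probes served as background, and the background p, the share of them at least as bright, had to be under 0.05 on at least 4 arrays, which kept 18640 probes. A gene is its brightest probe by the deposited values, and it was tested where that probe was kept. Of the members, 21 have several probes. Dim genes have compressed changes. Groups and times came from the labels. Arrays of a time were treated as pairs: deviations from the group means correlated with r = 0.590, 0.436, 0.678 and 0.483 at 4, 8, 12 and 24 h. limma 3.58.1 (R 4.3.3) gave the treatment effect with time as a factor, the treatment by time term on log2 hours, and slopes within each group, with Benjamini-Hochberg adjustment over 10436 genes and errors as standard errors. The scripts were tested on simulated data. Promoters were searched in Python 3.11.15 and figures drawn with matplotlib 3.10.9. Alternatives were other normalisations, filters, probe rules, variance settings, no block, and leaving out each time.

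Full values are given for the complex II genes, for up to 5 members of each other complex with the largest absolute effect, for members whose treatment by time term passed, for up to 4 genes of each other list, and for MYC, PPARGC1B and CYCS. ATP5MC2, ATP5F1D, NDUFB5 and the other members were named from within the set after their values were seen. The members and lists were chosen with earlier results of these data known. The number of arrays limits the precision.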

Additional observations from a re-analysis of the deposited data

Results flagged for a closer look

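In 46 groups of 4 arrays of the members given with full values, 4 arrays stood far from the other 3, the gap taking more of the group's range than Dixon's critical value. Chance alone flags about 5% of groups of 4 like replicates. The 4 arrays of a group here come from 4 different times, so that rate does not strictly apply. NDUFB8 in BAY1238097 cells was 12.23 at 4 h against 11.68 to 11.73 at the other times (gap share 0.911), and COX5A in BAY1238097 cells was 12.59 at 4 h against 12.07 to 12.14 (0.864). CYC1 in BAY1238097 cells was 11.12 at 12 h against 10.71 to 10.78 (0.838), and NDUFC1 in DMSO cells was 8.91 at 4 h against 8.45 to 8.51 (0.879). The 4 h arrays held 3 of the 4 values. The effect of treatment on CYC1 differed between times, by -0.370 for each doubling (limma adjusted p = 0.0452).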

How the results depend on the processing

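None of the 14 members past the threshold changed sign in any of the 14 alternatives that tested them (NDUFB1 was not tested where a probe had to be above background on all arrays), and the count of members whose treatment by time coefficient was below 0, an alternative count added after seeing the data, stayed between 49 and 71. Using the deposited values or a variance trend kept all 14 calls. With median scaling 0 members rose and 24 fell (806 and 2426 of all genes), 2 passed by time, 0 had a trend in BAY1238097 cells or a rise in DMSO cells, and the medians were -0.235, 0.038 and -0.224 for complexes I, II and V and -0.170 for all members. With background correction 0 members rose under quantile normalisation and 0 under median scaling, where 1037 of all genes rose, the complex I median was -0.208, and 0 trends were called in BAY1238097 cells or as a rise in DMSO cells; 0 passed by time and 0 rose in BAY1238097 cells under either. Without the filter 0 members passed by time, 0 rose in BAY1238097 cells and 0 rose in DMSO cells. With the mean of all probes 3 rose in BAY1238097 cells and the complex II median was -0.024. With a variance trend 0 rose in BAY1238097 cells and 2 fell in DMSO cells. With array weights 10 members rose and 25 fell (2501 and 2383 of all genes), 0 passed by time, 0 had a trend in BAY1238097 cells and 1 fell in DMSO cells. Without the replicate block, which ignores the pairing by time, 1 member rose and 3 fell (723 and 762 of all genes) and 0 passed by time. Leaving out each time in turn gave 0 to 4 rises and 1 to 22 falls among members, 644 to 2085 rises and 611 to 2036 falls among all genes, 0 to 3 members passing by time, 0 to 3 rising and 0 to 5 falling in BAY1238097 cells, and 0 to 13 rising and 0 to 6 falling in DMSO cells. The cause of these shifts was not tested, beyond the fewer arrays in the last.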
